A study of Mus musculus with 2 samples.

Results

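The Hox genes encode homeodomain transcription factors that set position along the head-to-tail axis of the embryo. In the mouse they lie in 4 clusters, Hoxa, Hoxb, Hoxc and Hoxd. Here they were taken as every protein-coding gene of the GENCODE vM21 basic annotation whose symbol is Hoxa, Hoxb, Hoxc or Hoxd followed by a number. That rule gave 39 of 21938 protein-coding genes: 11 in Hoxa, 10 in Hoxb, 9 in Hoxc and 9 in Hoxd. Genes with the same number in different clusters are paralogues, descended from 1 ancestral gene, and the numbers run from 1 at the 3′ end of a cluster to 13 at its 5′ end.

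As background, genes at the 3′ end of a cluster are activated first and furthest towards the head, and those at the 5′ end later and nearer the tail. Retinoic acid opens the 3′ end through receptors that bind paired half-sites in the DNA. Polycomb proteins keep silent Hox genes closed, Trithorax proteins keep active ones open, CTCF separates the 2 states, and the TALE homeodomain proteins Pbx, Meis and Pknox bind DNA together with Hox proteins. In blood-forming tissue the Hoxa and Hoxb genes of the middle of the clusters are known for their part in stem and progenitor cells.

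The chromatin was that of liver from B6NCrl mouse embryos at embryonic day 11.5, with males and females pooled. It was assayed by DNase-seq, in which the nuclease DNase I cuts accessible DNA and the cut ends are sequenced. The 2 libraries, technical replicates 7 and 1, come from 1 biological sample, without a second condition. No test across samples was therefore possible. Every interval below is a 95% interval of counting error alone, of cuts for densities and of peaks for shares. The list of technical replicate 7 held 86036 peaks and that of technical replicate 1 held 42422. A peak's density, the highest local density of cuts that the authors deposited, fell on steps of 0.00401 in technical replicate 7 and 0.0101 in technical replicate 1. If 1 step is 1 cut and densities are scaled by depth, which no header states, technical replicate 7 was 2.52 times deeper. The density intervals also take 1 step as 1 cut, and leave out that a density is the highest in a called peak. Of technical replicate 7's peaks 46.2% overlapped one of technical replicate 1, and of the latter's 89.9% overlapped one of the former. Over the shared peaks the density in technical replicate 1 was at the median 1.15 times that in technical replicate 7, with quartiles of 0.857 and 1.69. The liver is a mixed tissue: open chromatin in few cells and weak opening in many cannot be told apart. Of fixed marker lists, promoter peaks were shared at 6 of 6 erythroid, 5 of 9 hepatoblast, 4 of 4 mesenchymal and 2 of 4 endothelial genes, against 59.2% of all protein-coding genes. The hepatoblast and endothelial shares were thus no higher than that of all genes. Alb, a defining hepatocyte gene, had no promoter peak in either list. Hnf4a, Afp and Dlk1, named here after their values were seen, had one in technical replicate 7 alone, at densities of 0.717, 0.569 and 0.869.

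The sequences below go with 3 observations that follow. The first is retinoic repeats between the coding spans of the group 3 and group 4 genes. The second is CTCF-like stretches between group 9 and its 3′ neighbour, and the third the strongest peaks found in both libraries. With 1 mismatch allowed, CTCF-like matches were in 10.1% of body peaks of technical replicate 7, against 22.5% of all its peaks. The mismatch and the group 9 gaps were chosen after the values were seen. Places between genes are given by coding spans. All are from the GRCm38 assembly, 5′ to 3′ on the strand given. First come the 4 places in peaks of technical replicate 7, in the clusters and 100 kb to each side, that match the direct repeat with a spacer of 5 bases (DR5) bound by retinoic acid receptors. Capitals mark the 17 bases of the repeat.
Hoxa, between Hoxa3 and Hoxa4, chr6:52175493-52175589, minus strand: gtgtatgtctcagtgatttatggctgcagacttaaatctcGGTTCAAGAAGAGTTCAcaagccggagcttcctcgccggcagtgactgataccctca
Hoxb, between Hoxb3 and Hoxb4, chr11:96341196-96341292, plus strand: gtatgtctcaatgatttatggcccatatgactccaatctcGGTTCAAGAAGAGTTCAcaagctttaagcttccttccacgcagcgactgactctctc
Hoxb, 3′ of Hoxb1, chr11:96372736-96372832, plus strand: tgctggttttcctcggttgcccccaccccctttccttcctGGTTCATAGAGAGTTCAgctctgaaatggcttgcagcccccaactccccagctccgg
Hoxc, 3′ of Hoxc4, chr15:103061674-103061770, plus strand: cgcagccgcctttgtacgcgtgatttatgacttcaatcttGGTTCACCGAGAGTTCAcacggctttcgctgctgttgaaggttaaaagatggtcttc

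The next 3 stretches are matches, with 1 mismatch allowed, to the 12-letter CTCF consensus, each in the peak between the group 9 gene and its nearest 3′ neighbour. Capitals mark the match.
Hoxa7 to Hoxa9, chr6:52221801-52221828, minus strand: agaaaattCCAGGAGATGGCagtgtggc
Hoxb8 to Hoxb9, chr11:96278940-96278967, plus strand: cacagtggCCGCTAGATGGCatccttgc
Hoxd8 to Hoxd9, chr2:74702387-74702414, plus strand: gcatttggCCACTAGAGAGCgctgttgc

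The strongest peaks of 3 clusters that were found in both libraries are shown whole, on the plus strand. The strongest shared peaks of Hoxa, and that of Hoxb at Hoxb4, overlap untranslated regions and are not printed. For Hoxb the next strongest is given, whose capitals mark the CTCF-like match above.
Hoxb8 to Hoxb9, chr11:96278864-96279082: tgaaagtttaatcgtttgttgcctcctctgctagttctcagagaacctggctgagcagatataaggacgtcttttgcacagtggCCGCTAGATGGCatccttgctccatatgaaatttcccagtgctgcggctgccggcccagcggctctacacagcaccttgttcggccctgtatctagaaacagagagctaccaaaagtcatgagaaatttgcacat
Hoxc8 to Hoxc9, chr15:102987496-102987710: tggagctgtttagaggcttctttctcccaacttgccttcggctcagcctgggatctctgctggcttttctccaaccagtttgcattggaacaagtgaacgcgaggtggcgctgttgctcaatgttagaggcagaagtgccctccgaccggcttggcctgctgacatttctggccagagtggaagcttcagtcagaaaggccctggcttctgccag
Hoxd4 to Hoxd8, chr2:74715835-74716059: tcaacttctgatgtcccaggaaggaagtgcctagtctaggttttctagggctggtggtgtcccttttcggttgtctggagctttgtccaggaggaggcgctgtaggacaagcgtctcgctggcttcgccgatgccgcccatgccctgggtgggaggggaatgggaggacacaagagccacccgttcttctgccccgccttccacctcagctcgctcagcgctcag

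A promoter peak is a listed peak that overlaps the 1 kb on either side of any transcript start of a gene. In technical replicate 7, 23 of the 39 Hox genes had one (59.0%), against 65.3% of all protein-coding genes. In technical replicate 1, 4 had one, against 59.9% of all genes. The same 4 genes, Hoxb4, Hoxb5, Hoxc10 and Hoxd9, had a promoter peak that overlapped between the libraries (10.3%), against 59.2% of all genes. Hox promoters are rich in CpG dinucleotides, with a median observed-over-expected ratio of 0.679 against 0.553 for all genes. The ratio was taken in 1000 bp around the annotated 5′ end of each gene. That end is not always a start used for the peaks. The comparison was therefore repeated within the range of the Hox genes, 0.181 to 0.995. This wide range takes in most protein-coding genes. Among the 17022 genes in that range 78.4% had a promoter peak in technical replicate 7 and 71.8% in both libraries. In both libraries the Hox share was thus far below the share of all genes and that of the genes in the range. In technical replicate 7 alone it was near the share of all genes, slightly lower on 39 genes, and further below that of the genes in the range. The Hox genes with a promoter peak in technical replicate 7 had a median CpG ratio of 0.693, and those without one 0.643.

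**Figure D1:**
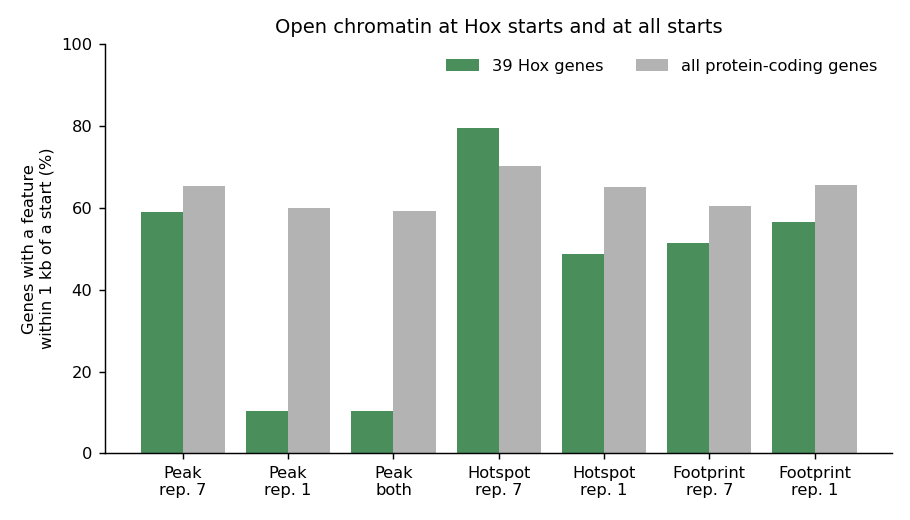
Percent of genes (vertical axis) with a listed peak, hotspot or footprint within 1 kb of a transcript start, for the 39 Hox genes (green) and all protein-coding genes (grey), by library or in both libraries. The peak bars of technical replicate 1 stand farthest apart, at 4 Hox genes against 59.9% of all genes.

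The broader hotspots, regions of raised cutting, reached more Hox genes. A hotspot lay within 1 kb of a start of 31 Hox genes in technical replicate 7 and of 19 in technical replicate 1, against 70.2% and 65% of all genes. Footprints, short protected stretches within open DNA, lay at 20 Hox genes in technical replicate 7 (60.4% of all genes) and 22 in technical replicate 1 (65.6%). The hotspot share of the Hox genes was above the background in technical replicate 7 and below it in technical replicate 1, and both footprint shares were below theirs. The footprint list of technical replicate 1 comes from another alignment and is not comparable with that of technical replicate 7. In 7 genes, Hoxa3, Hoxb13, Hoxc8, Hoxc9, Hoxc12, Hoxd4 and Hoxd12, neither library had a hotspot or a peak within the window.

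Where Hox promoter peaks were listed they were weak. The strongest promoter peak of the 23 genes in technical replicate 7 had a median density of 0.705, against 2.74 over the 14335 genes with one. Its median rank was at the 56.2nd percentile of the list, against the 91.0th for those genes, and the highest Hox rank was 86.5, at Hoxa4. Peak midpoints lay a median of 220 bp from the nearest start, against 64 bp over all genes, with 14 upstream and 9 downstream. Hox genes had a median of 1 start and all protein-coding genes 2. The part of this in the distances and in the shares of genes above was not tested. The widths were alike, at 282 and 272 bp.

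**Figure D2:**
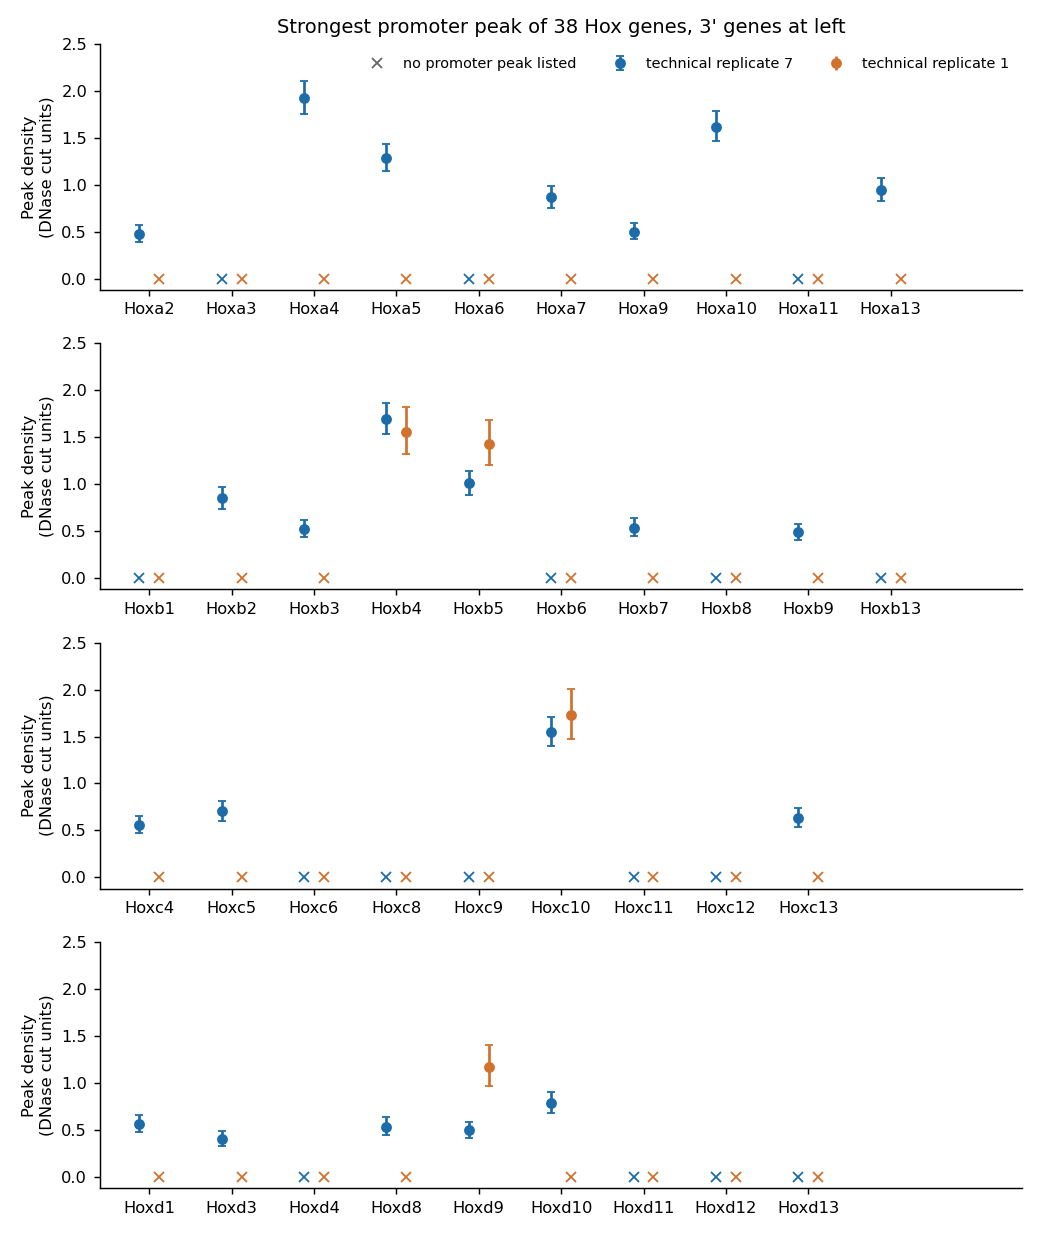
Density of the strongest promoter peak (vertical axis, deposited DNase cut units) of 38 Hox genes in technical replicate 7 (blue) and technical replicate 1 (orange), with 1 panel per cluster and the 3′ genes at left. Bars are 95% counting intervals and crosses mark genes without a listed promoter peak, among them every Hoxa gene shown in technical replicate 1.

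The 4 genes with a peak in both libraries were 2 of Hoxb, 1 of Hoxc and 1 of Hoxd. Hoxb4, which enlarges blood stem cell pools when raised in them, had 1.69 (1.53 to 1.86) in technical replicate 7 and 1.56 (1.32 to 1.82) in technical replicate 1. These values overlapped within counting error, in a peak 380 bp downstream of the start, within an untranslated region. Hoxb5, next to it, had 1.01 (0.889 to 1.14) and 1.42 (1.20 to 1.68), with technical replicate 1 the higher, in a peak centred at -229 bp from the start. Hoxc10, a gene of the lumbar level, had the highest density of the 4 in technical replicate 1. Its values were 1.55 (1.40 to 1.71) and 1.73 (1.48 to 2.01), with overlapping intervals, in a peak centred at -184 bp. Hoxd9, a gene of limb and trunk, had 0.493 (0.409 to 0.588) and 1.17 (0.968 to 1.41), the widest ratio of the 4. The peaks of the libraries differed in place, with midpoints 231 and 27 bp downstream of the start. The stretch upstream of Hoxd9 outside untranslated regions, from the RefSeq promoter table on GRCm38, is shown because the peak of technical replicate 1 (chr2:74697643-74697865) reaches into it, whereas that of technical replicate 7 (chr2:74697825-74698091) does not. It holds none of the motifs searched, and so no capitals.
Hoxd9, chr2:74697513-74697726, plus strand: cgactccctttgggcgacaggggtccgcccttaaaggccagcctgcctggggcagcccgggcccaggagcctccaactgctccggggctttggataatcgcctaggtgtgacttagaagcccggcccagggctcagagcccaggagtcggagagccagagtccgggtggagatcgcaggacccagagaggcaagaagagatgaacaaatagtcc

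Hoxa stood out by the difference between the libraries. In technical replicate 7, 8 of its 11 genes had a promoter peak (72.7%), the highest share of the 4 clusters but near the 65.3% of all protein-coding genes. In technical replicate 1 none had with the basic starts, against 59.9% of all genes. The strongest promoter peak in technical replicate 7 was that of Hoxa4, at 1.93 (1.76 to 2.11), centred at -192 bp from the start. It had the highest promoter density of any Hox gene. Hoxa10, a gene of the lumbar level that is also active in blood progenitors, followed at 1.62 (1.46 to 1.78), in its untranslated region. Hoxa5, needed for lung formation, had 1.29 (1.15 to 1.43), centred at -10 bp. Hoxa13, a gene of distal limb and hindgut, had 0.945 (0.829 to 1.07), and Hoxa7 had 0.865 (0.754 to 0.989). The lowest were Hoxa9, a gene of blood progenitors and leukaemia, at 0.501 (0.417 to 0.597), and Hoxa2, a gene of the pharyngeal arches, at 0.473 (0.391 to 0.566). The hotspot at Hoxa4 reached a −log10 false discovery rate (FDR) of 43.2 in technical replicate 7 and 2.07 in technical replicate 1. At Hoxa10 these were 34.3 and 1.67, and no other Hoxa start had a hotspot in technical replicate 1.

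Hoxb had promoter peaks at 6 of 10 genes in technical replicate 7 (60.0%), against 65.3% of all protein-coding genes. Besides Hoxb4 and Hoxb5 these were Hoxb2, a hindbrain gene, at 0.849 (0.739 to 0.972), Hoxb7 at 0.537 (0.450 to 0.636), Hoxb3 at 0.521 (0.435 to 0.618) and Hoxb9 at 0.485 (0.402 to 0.579). The last 3 intervals overlapped one another. The Hoxb7 value is that of a peak centred at -1193 bp from the start, and a weaker peak of 0.433 (0.355 to 0.522) was centred at -49 bp. Hoxb1, Hoxb6, Hoxb8 and Hoxb13 had none, although hotspots touched Hoxb1, Hoxb6 and Hoxb8 in both libraries, at −log10 FDR values of 1.95 to 2.34 in technical replicate 7 and 2.23 to 2.78 in technical replicate 1. These 3 genes were therefore touched by weak hotspots without a listed peak.

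Hoxc had the fewest in technical replicate 7, 4 of 9 (44.4%), against 65.3% of all protein-coding genes. Beside Hoxc10 these were Hoxc5 at 0.705 (0.605 to 0.817), Hoxc13, a gene of hair and nails, at 0.629 (0.534 to 0.735), and Hoxc4 at 0.557 (0.468 to 0.657). The annotated extent of Hoxc5 (chr15:102967443-103017429) takes in Hoxc6, Hoxc8 and Hoxc9, so peaks between those genes can lie in an intron of Hoxc5. Hoxd had 5 of 9 (55.6%), against the same 65.3% of all genes. Beside Hoxd9 these were Hoxd10, a gene of hindlimb motor neurons, at 0.785 (0.679 to 0.903), Hoxd1 at 0.561 (0.472 to 0.662), Hoxd8 at 0.533 (0.446 to 0.631) and Hoxd3 at 0.401 (0.326 to 0.487), the lowest of all 23. Hoxd4, Hoxd11, Hoxd12 and Hoxd13, the last the main digit gene, had none in either library.

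By paralogue number, groups 2, 5, 7 and 10 had a promoter peak in technical replicate 7 at every member (2 of 2, 3 of 3, 2 of 2 and 3 of 3). Groups 6, 11 and 12 had one at no member (0 of 3, 0 of 3 and 0 of 2). Groups 4 and 9 had 3 of 4 each, group 3 had 2 of 3, group 8 had 1 of 3 and group 13 had 2 of 4. Taken along the axis, groups 1 to 4 had 9 of 12, groups 5 to 8 had 6 of 11 and groups 9 to 13 had 8 of 16. Against the 65.3% of all genes the first share was above and the others below, each on few genes. The 4 genes shared by both libraries belonged to groups 4, 5, 9 and 10.

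The count depends on the starts in the annotation. Hoxa3, with a single start in the basic annotation, gained a peak of 1.37 with RefSeq starts, and Hoxc6 gained one of 1.05 with the full GENCODE or RefSeq starts. Hoxd4 gained one of 0.389 with the full starts, and Hoxa9 lost its peak with RefSeq starts. With all starts of the full annotation 25 Hox genes had a promoter peak in technical replicate 7, against 66.9% of all genes, and 6 in technical replicate 1, against 61.2%. The 2 genes added in technical replicate 1, both shared, were Hoxa7, through a peak of 1.88 in technical replicate 7 and 2.52 in technical replicate 1, and Hoxc5, through the peak of Hoxc10. With RefSeq starts Hoxb8 was added to the shared genes, at 1.66 and 1.26.

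Of the 23 genes, 19 had a promoter peak in technical replicate 7 alone, with densities from 0.401 to 1.93 and a median of 0.629. The 5th percentile of technical replicate 1's own list was 0.646, and 10 of the 19 lay below it. The other 9 lay above it, among them Hoxa4, Hoxa5, Hoxa7, Hoxa10, Hoxa13, Hoxb2, Hoxc5 and Hoxd10. Cut by density to the length of the other list, technical replicate 7 kept a promoter peak at 12 Hox genes, against 57.3% of all genes, and 6 of the 12 were in Hoxa. With the longer deposited lists, technical replicate 1 had promoter peaks at 12 Hox genes (62.3% of all genes), with 0 in Hoxa and 6 in Hoxb, and both libraries at 10 (61.7% of all genes). These 10 were the 4 named above and Hoxb2, Hoxb8, Hoxc5, Hoxd3, Hoxd8 and Hoxd10. The part of depth in the difference at Hoxa was not tested.

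Lists from other alignments of technical replicate 1 gave another picture, but were also longer. The 3 lists, in the order below, held 62288, 99983 and 106208 peaks, against 42422 in the list used. The part of list length in the counts was not tested. A shorter and a longer list from a second alignment had promoter peaks at 18 and 23 Hox genes (62.1% and 67% of all genes), and a list from a further alignment at 24 (66.8%). Of these, 5, 7 and 7 were Hoxa genes and 8 in each were Hoxd genes, among them Hoxd11, Hoxd12 and Hoxd13 in all 3 lists. Hoxa11, Hoxc9, Hoxd4, Hoxd11, Hoxd12 and Hoxd13 were in the shorter list and in neither of the lists used above. Peaks of that list overlapped the used list of technical replicate 1 in 56.2% of cases and that of technical replicate 7 in 60.8%. The accompanying notes do not name the reads behind those alignments. The absence of Hoxa and of Hoxd11 to Hoxd13 promoter peaks in technical replicate 1 therefore holds for the list used and its longer version with the basic starts; with the full starts Hoxa7 had one in the list used.

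**Figure D3:**
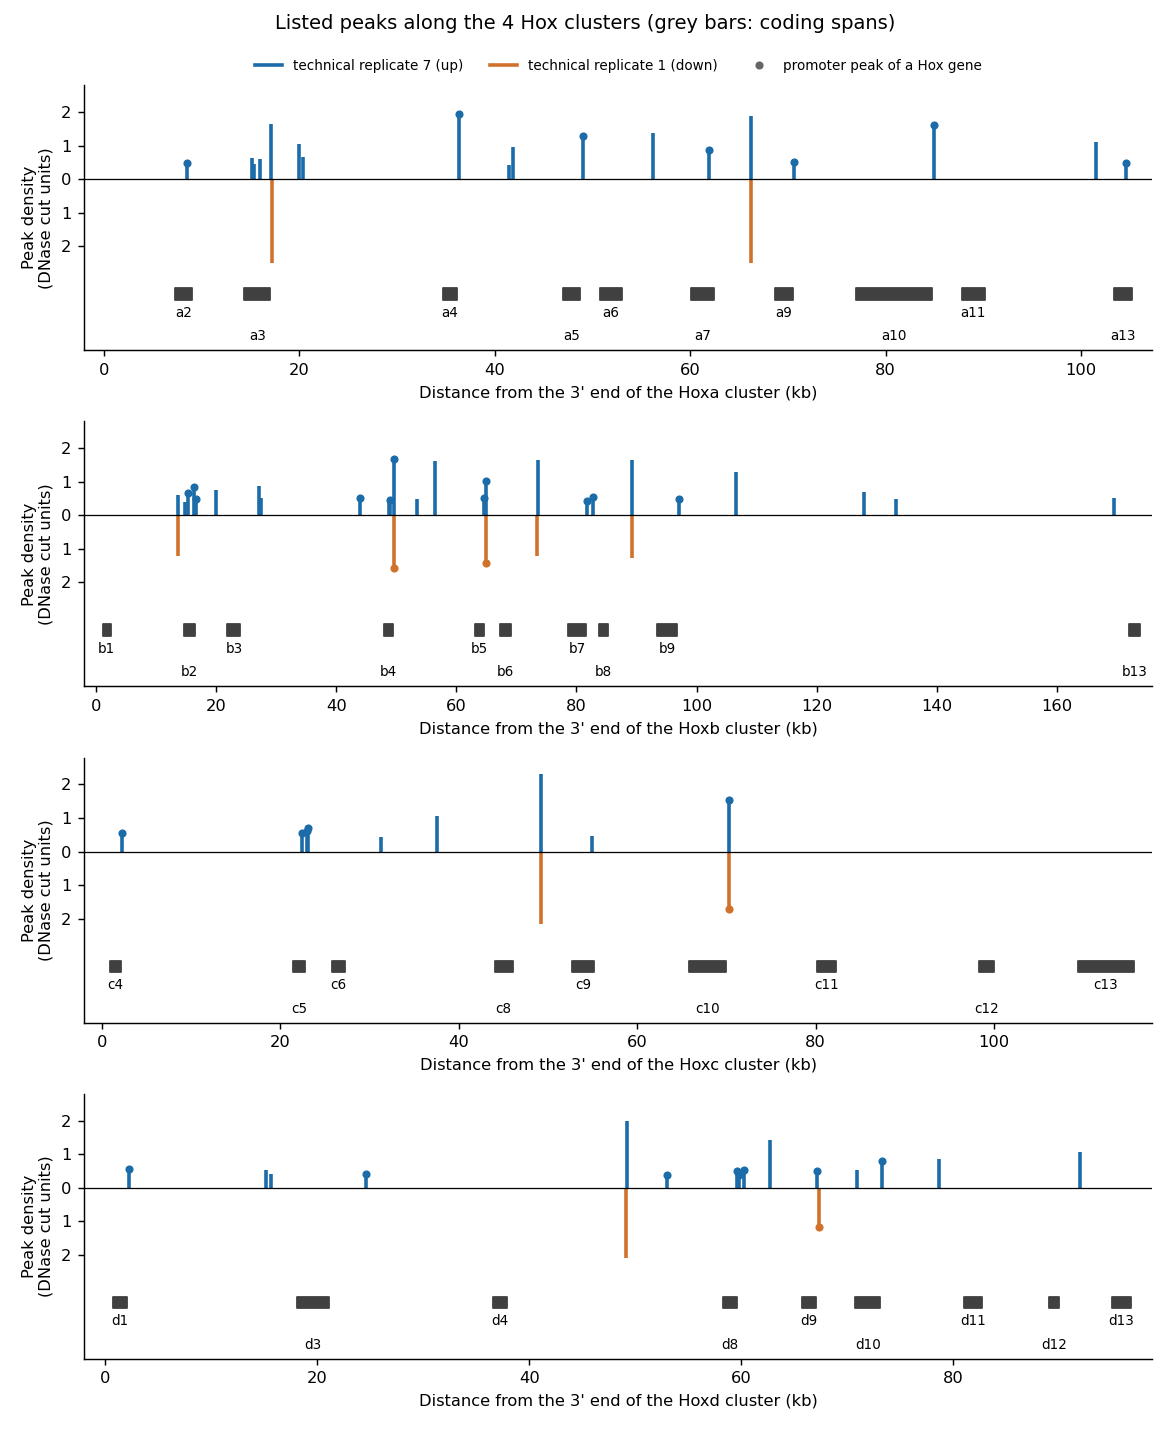
Listed peaks along each cluster: the horizontal axis is the distance in kb from the 3′ end, and bar height is peak density in deposited DNase cut units, upward for technical replicate 7 and downward for technical replicate 1. Dots mark Hox promoter peaks and grey bars the coding spans, with 1 gene and its peaks left out. All 11 peaks of technical replicate 1 have a partner above them.

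Along the cluster bodies, from the first to the last base of their genes, peaks were dense in technical replicate 7. The 4 bodies together spanned 491.8 kb and held 69 peaks by midpoint, or 14.0 per 100 kb, against 4.63 in the 100 kb flanks and 3.25 over the genome. In technical replicate 1 they held 11, or 2.24 per 100 kb, against 1.50 in the flanks and 1.60 over the genome. All 11 overlapped peaks of technical replicate 7. By cluster technical replicate 7 had 20 peaks in Hoxa (19.0 per 100 kb), 25 in Hoxb (14.4), 9 in Hoxc (7.78) and 15 in Hoxd (15.5). Technical replicate 1 had 2, 5, 2 and 2. Of the 69 peaks 33 lay at a Hox start. By midpoint 29 lay in introns, 14 between genes, 11 in untranslated regions, 8 in coding exons and 7 in exons of non-coding RNAs.

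Of the 11 shared peaks in the bodies, 4 were the promoter peaks above and 7 lay away from the basic Hox starts. Of these 7, that between Hoxa7 and Hoxa9 was at a start of Hoxa7 in the full annotation, and that between Hoxb8 and Hoxb9 at a start of Hoxb8 in RefSeq. The strongest in technical replicate 1 was in Hoxa between Hoxa7 and Hoxa9 (chr6:52221682-52221926), at 1.88 (1.71 to 2.06) in technical replicate 7 and 2.52 (2.21 to 2.85) in technical replicate 1. The other Hoxa peak, at chr6:52172613-52172871 between Hoxa3 and Hoxa4, had 1.63 (1.48 to 1.80) and 2.49 (2.19 to 2.83). Both were higher in technical replicate 1, by ratios within the quartiles of all shared peaks. The peak between Hoxa7 and Hoxa9 is the one at the Hoxa7 start of the full annotation. The Hoxc peak between Hoxc8 and Hoxc9 had 2.32 (2.14 to 2.52) and 2.17 (1.89 to 2.48), the highest density of technical replicate 7 in any body. The Hoxd peak between Hoxd4 and Hoxd8, in an exon of the antisense RNA Hoxd3os1, had 1.97 (1.80 to 2.16) and 2.09 (1.82 to 2.40). In Hoxb the peak between Hoxb8 and Hoxb9 had 1.66 (1.50 to 1.83) and 1.26 (1.05 to 1.50). One between Hoxb6 and Hoxb7 (chr11:96294597-96294814) had 1.65 (1.50 to 1.82) and 1.20 (0.996 to 1.44), and one between Hoxb1 and Hoxb2 (chr11:96354561-96354828) had 0.613 (0.520 to 0.718) and 1.22 (1.01 to 1.46). The intervals of the libraries overlapped for the Hoxc, the Hoxd and, at their edges, the Hoxb8 to Hoxb9 peak, and did not for the other 4.

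In every cluster the gap between the coding spans of the group 9 gene and its nearest 3′ neighbour held a peak over 1 in density in technical replicate 7. This was noticed after the values were seen, and 19 of all 35 gaps held such a peak, 8 of 10 in Hoxa. The densities in technical replicate 7 were 1.88 for Hoxa7 to Hoxa9, 1.66 for Hoxb8 to Hoxb9, 2.32 for Hoxc8 to Hoxc9 and 1.41 for Hoxd8 to Hoxd9. The first 3 were shared with technical replicate 1 and the last was not. These gaps were 6.23, 8.11, 6.64 and 6.13 kb long. Of all 35 gaps between neighbouring Hox genes, 30 held a peak of technical replicate 7 and 11 one of technical replicate 1. The 5 without any were Hoxa2 to Hoxa3, Hoxc9 to Hoxc10, Hoxc11 to Hoxc12, Hoxc12 to Hoxc13 and Hoxd11 to Hoxd12.

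The exact CTCF consensus was found in none of the 69 body peaks of technical replicate 7 (upper limit 5.21%), against 7.3% of all its peaks. With 1 mismatch allowed, a setting chosen after seeing that count, 7 of 69 matched (10.1%, interval 4.18 to 19.8), against 22.5% of all peaks. Of the 7 matches, 3 lay in the gap peaks of Hoxa, Hoxb and Hoxd printed above. The others were in the promoter peaks of Hoxa5 and Hoxa10, in a second promoter peak of Hoxd3 (0.389) and in a peak of 1.07 between Hoxd12 and Hoxd13. The Hoxc8 to Hoxc9 peak had no match within its letters. A match describes letters and not binding.

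The DR5 repeat was found in 2 of the 69 body peaks (2.90%, interval 0.353 to 10.1) and 2 of the 37 flank peaks (5.41%, 0.661 to 18.2), against 0.148% of all peaks of technical replicate 7. Both body repeats lay between the coding spans of the group 3 and group 4 genes, within the annotated extent of Hoxa3 and Hoxb3. In Hoxa the peak (chr6:52175377-52175692) had a density of 1.04 (0.919 to 1.18), and in Hoxb (chr11:96340953-96341315) 0.877 (0.765 to 1.00). Compared position by position without gaps, the 2 printed windows were identical over an unbroken run of 28 bases that contains the repeat. Of the 80 bases beside the repeat 31 were the same, those within that run among them. Likeness at a shifted position, which the printed letters show upstream of the repeat, is not counted. Another lay 7032 bp 3′ of the Hoxb1 start in a peak of 0.417 (0.340 to 0.505). The last lay 27327 bp 3′ of the Hoxc4 start, on the side where Hoxc lacks groups 1 to 3, in a peak of 0.661 (0.564 to 0.770). None of the 4 peaks overlapped one in technical replicate 1's list, although a hotspot of that library touched the Hoxc repeat, and no listed footprint of either library lay on the repeats. In the lists from other alignments of technical replicate 1 the Hoxa repeat lay in a peak of all 3, and the Hoxc repeat in one of the longer list of the second alignment alone. The repeat with a spacer of 2 bases was found in 0 of the 69 peaks, against 0.157% of all.

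The motif TGATNNAT, the type of site that Pbx and Hox proteins bind together, was found on either strand in 12 of 69 body peaks (17.4%, 9.32 to 28.4), against 6.69% of all peaks. All 12 lay in Hoxa and Hoxb, and none overlapped a peak of technical replicate 1. They included promoter peaks of Hoxa2, Hoxa4, Hoxa7, Hoxb2 and Hoxb9, and the weaker ones of Hoxb5, at 0.517, and of Hoxb7, at 0.433. Both group 3 to group 4 peaks with a retinoic repeat were also among them. In technical replicate 1 it was in 0 of 11 body peaks, which allows up to 28.5%, against 4.12% of all. The Cdx-type CAATAAA was in 2.90% against 2.55%, AGATAA of the GATA factors in 8.70% against 15.3%, CCATNTT of YY1 in 11.6% against 12.9%, and TGACAG of Meis and Pknox in 15.9% against 18.6%. The intervals of these 4 held the value over all peaks. In the RefSeq promoter table, which has 24 promoters of 22 Hox genes, TGATNNAT was in 4 (16.7%), those of Hoxa2, Hoxb1, Hoxb8 and Hoxd11, against 8.85% of 32851 promoters.

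**Figure D4:**
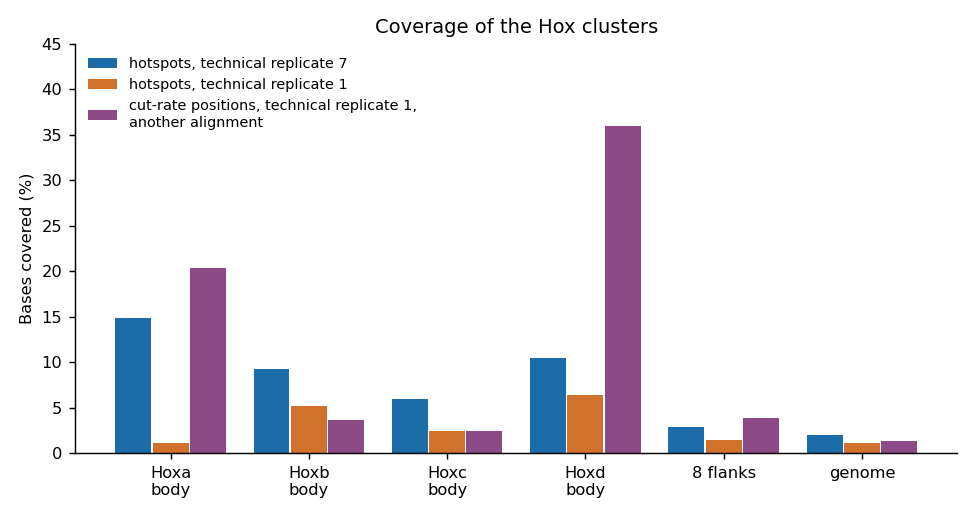
Percent of bases covered (vertical axis) by hotspots of technical replicate 7 (blue) and technical replicate 1 (orange) and by positions with a significant cut rate from another alignment of technical replicate 1 (purple), in each cluster body, the 8 flanks and the genome. In Hoxa the blue and orange bars are 14.8% and 1.09%.

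Hotspots covered 9.91% of the bodies in technical replicate 7 and 3.91% in technical replicate 1, against 2.03% and 1.17% of the genome. By cluster technical replicate 7 had 14.8% in Hoxa, 9.23% in Hoxb, 5.93% in Hoxc and 10.5% in Hoxd. Technical replicate 1 had 1.09%, 5.17%, 2.49% and 6.41%. Hoxa was thus the most covered cluster in the former library and the least in the latter, near the genome's level. Footprints of technical replicate 7 numbered 32 in Hoxa, 19 in Hoxb, 10 in Hoxc and 15 in Hoxd, or 15.5 per 100 kb of body against 4.07 over the genome. In technical replicate 1 they numbered 164, 42, 30 and 200, with 8.30 per 100 kb over the genome. The positions with a significant cut rate in the same alignment as those footprints covered 20.3% of the Hoxa and 36.0% of the Hoxd body, 3.62% of Hoxb and 2.44% of Hoxc, against 1.41% of the genome. Within 1 kb of the Hoxd12 and Hoxd13 starts all 2001 bases were covered. Their part in the footprint counts was not tested.

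Beyond the Hox genes, 10 other protein-coding genes lay in the bodies and flanks. Evx1 and Evx2, homeobox genes beside the 5′ ends of Hoxa and Hoxd, had no promoter peak in either library, nor had Skap1, Gm28308, 5730596B20Rik and Gm28230. Lnpk, a gene of the endoplasmic reticulum in the 5′ flank of Hoxd, had 3.85 (3.61 to 4.10) in technical replicate 7 and 3.20 (2.86 to 3.57) in technical replicate 1, above every peak in the 4 bodies. Mtx2, a mitochondrial import gene in its 3′ flank, had 1.90 (1.74 to 2.08) and 1.76 (1.51 to 2.04). Ttll6 in the 5′ flank of Hoxb had 0.969 and 0.717, and Calcoco2 had 0.320 in technical replicate 7 alone. The 3′ flank of Hoxb held 11 peaks of technical replicate 7, the most of any flank, none of them at an annotated gene start.

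Of the genes that act on or with Hox genes, most had a promoter peak in both libraries, where the share of all protein-coding genes was 59.2%. All 9 TALE cofactors had a promoter peak in both libraries, led by Pknox1 (6.98 and 4.29) and Pbx3 (4.30 and 4.76). All 19 Polycomb genes had one, led by Jarid2 (6.25 and 5.63) and Suz12 (5.92 and 4.44), as had all 8 Trithorax-side genes, led by Kmt2b (5.18 and 4.75) and Kmt2a (3.95 and 5.60). The 2 genes named in each list have its highest mean rank over both libraries. The first value of each pair is the density in technical replicate 7 and the second that in technical replicate 1. Of 12 upstream regulators 8 had one in both, a share near that of all genes, led by Ctcf (3.52 and 3.80) and Egr2 (3.61 and 2.40). Cdx1, Cdx2 and Cdx4, the caudal-type activators of posterior Hox genes, had none in either library, and Cyp26a1, which breaks down retinoic acid, had 0.385 in technical replicate 7 alone.

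Of 43 non-coding genes in the cluster bodies 13 had a listed peak within 1 kb of a start in technical replicate 7, against 14.3% of all genes that are not protein-coding, and 4 in both libraries, against 9.7%. Their starts lie among the Hox genes, and some share a peak with one. Gm15050 lay at the shared Hoxa peak of 1.63 and 2.49, Hoxd3os1 at the shared Hoxd peak of 1.97 and 2.09, and Hoxb3os at the shared Hoxb peak of 0.613 and 1.22. Gm28793 shared the Hoxd9 peak. Haglr, the antisense RNA beside Hoxd1, had 0.529 in technical replicate 7 alone.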

How the data were processed

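The authors deposited peak, hotspot and footprint lists on mm10 for each library separately, per the file headers and accompanying notes; no aligner or caller is named there. Peak densities are a signal per the file headers, hotspots carry a deposited −log10 FDR, and the footprints and cut-rate positions of technical replicate 1 carry a deposited FDR, read as a p-value type. Of 2 lists per library the shorter was used. Starts and exons came from GENCODE vM21 basic, sequences from GRCm38, whose chromosomes are those of mm10. Sharing needed an overlap of 1 bp. Peaks were put into bodies and 100 kb flanks by midpoint. Intervals at 95% are Poisson, exact only if 1 density step is 1 cut, or Clopper-Pearson (shares). Motifs were searched on both strands of whole peaks. Counting was tested on simulated data. Python 3.11.15, pandas 2.3.3, numpy 2.4.6 and scipy 1.17.1 were used. The genes described are the Hox genes (values of 1 are not reported here, though it is in the counts), the other protein-coding genes nearby and, of fixed lists, those without a peak and the top 2. Members, lists and motifs were chosen with earlier results of these data known. Alternatives (window, starts, list, overlap, flank size) are in the closing section.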

Additional observations from a re-analysis of the deposited data

Results flagged for a closer look

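Data outside the lists used gave signals above the lists used of technical replicate 1, in coverage of Hoxa and Hoxd and in Hox genes with a peak. Positions with a significant cut rate, from another alignment of technical replicate 1, covered 20.3% of the Hoxa body and 36.0% of the Hoxd body, against 1.41% of the genome. The shorter and longer peak lists of that alignment put a promoter peak at 18 and 23 Hox genes (62.1% and 67% of all genes). A list from a further alignment did so at 24 (66.8%). The lists used had 4 in technical replicate 1 (59.9%) and 23 in technical replicate 7 (65.3%). The cause was not tested.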

How the results depend on the processing

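Of 47 alternative values 31 stayed close to the reported value and 16 moved, a ratio of over 1.5 being read as moved for counts and rates. Hotspot coverage and CTCF shares were read as moved outside the 95% interval of the reported share, which counts each base or peak as 1 draw. Leaving out a library, the count of 4 Hox genes shared by both ranged from 4 (without technical replicate 7) to 23 (without technical replicate 1). It was 10 with the longer lists (61.7% of all genes). With technical replicate 1's lists from other alignments it was 9 (keeping 2 of the 4), 15 and 14. For these pairings the share of all genes is not given here, so whether the Hox share lies below it cannot be told. Technical replicate 7's 23 genes fell to 12 when its list was cut to the other's length (57.3% of all genes). They fell to 13 among peaks above the median density, for which the share of all genes is not given either. Technical replicate 1's 4 rose to 12 with the longer list (62.3% of all genes). Peaks per 100 kb in technical replicate 7 fell to 6.71 in bodies and 2.25 in flanks at the cut length. In technical replicate 1 they rose to 8.13 in bodies with the longer list and 2.44 in flanks of 200 kb. Hotspots with a −log10 FDR of at least 3 covered 6.26% of the bodies in technical replicate 7 and 1.17% in technical replicate 1. The longer footprint list of technical replicate 7 gave 308 in the bodies. The CTCF share of 0 became 10.1% with 1 mismatch. The other alignments, annotation starts, midpoint rule and the mismatch were chosen after seeing the data. No paired analysis was possible because the labels give 1 group. A gene without a listed peak in technical replicate 1 may lie under the density that its depth allows to be listed, which was not tested.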
